A study of Triticum aestivum with 8 samples.

Results

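The 150 probe sets of the wheat array whose signal was bright in crowns of non-acclimated plants and close to the background after cold acclimation are described here, out of 61115 probe sets that were tested. They were chosen by measured values. A probe set was kept where its highest log2 signal on the 4 cold-acclimated (CA) arrays was under 4. Its gap was then taken as the lowest of the 4 non-acclimated (NT) arrays minus the highest of the 4 CA arrays, and the 150 largest gaps were retained. Controls were left out first, as were probe sets matched to 28 of the 41 genes that the study itself displayed. Those with 8 set-aside symbols (several histones, tubulins, a catalase and a small heat shock protein) were also left out, which left 61051 probe sets. Displayed genes without a match may still have probe sets among these. Because the choice rests on the contrast between CA and NT, the fall in signal is given below as a description and not as a tested finding.

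Crown tissue of 2 winter wheat lines, azide mutants of the cultivar Winoka, was compared before and after cold acclimation, with 2 arrays in each of 4 groups. The groups were FR CA and FS CA, the freeze-resistant line SD16029 and the freeze-susceptible line SD16169 after 4 weeks at 4°C, and FR NT and FS NT, the same lines grown in the greenhouse and labelled 25°C. Each line is a single mutant line, and no array of the parent Winoka was analysed here. The crowns of 3 biological replicates were pooled before RNA was isolated, and both arrays of a group are technical replicates of that pool. The p-values therefore reflect how far arrays scatter, and say nothing of the scatter between plants. The NT crowns were taken at the leaf stage at which the CA plants entered the cold, so that cold and 4 further weeks of age cannot be told apart. The number of arrays limits the precision.

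Cold acclimation is the exposure of winter cereals to low, non-freezing temperature by which they gain the ability to survive frost. The crown, the non-photosynthetic base of the shoot just above the roots, holds the meristem from which the plant regrows, and growth and cell division slow there in the cold. The best known transcripts of acclimation are those of the induced Cor/Lea genes, whose products protect cells against loss of water. A probe set is the group of short oligonucleotides that reports 1 transcript or several close copies. In its name the number after Ta or TaAffx is the cluster of expressed sequences from which it was designed. The ending x_at marks probes that can also bind other transcripts, s_at marks probes shared by several transcripts, and a_at marks probes shared by variants of a gene.

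The array medians lay between 2.85 and 2.95 and the highest signals between 16.70 and 16.89. The lowest value, 2.15, is a floor, and 31.9% to 32.7% of an array's tested probe sets stood at it. A signal under the array median cannot be told from background, and a low signal is therefore not evidence that a transcript is absent. Spike-in controls with a poly-A tail, whose dose the study does not state, read 0.60 higher in CA than in NT in both FR and FS. By array they read 8.34 and 8.74 in FR CA, 7.76 and 8.12 in FR NT, 8.43 and 8.57 in FS CA, and 7.78 and 8.01 in FS NT. Controls of the hybridization step read 10.61 and 11.62 in FR CA, 10.77 and 10.76 in FR NT, 11.63 and 11.81 in FS CA, and 11.04 and 11.05 in FS NT. Relative to the poly-A controls the median change of the 150 was -8.41 in FR and -8.58 in FS (log2, CA minus NT). On that scale all 150 were called lower in each line, as were 66.0% of all tested probe sets in FR and 65.9% in FS. Of the 5 probe sets of the leaf markers OEE1 (PsbO), OEE2 (PsbP) and petC, proteins of photosynthesis in the chloroplast, 4 were also lower in CA. Their summed log2 signal was 45.8 to 47.3 on the CA arrays and 56.5 to 57.9 on the NT arrays, and the remaining one (petC, TaAffx.128418.105.S1_at) was at the floor on all 8 arrays. No other name of the leaf list (rbcS, cab, Lhc, psaD) and none of the root transporters NRT2, AMT1 and PHT1 matched the annotation. The part of leaf or root cells in the results was not tested.

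The NT arrays did not group by their line labels. The root mean square difference over the 150 probe sets was 0.23 between FR NT array 1 and FS NT array 2 and 0.30 between FR NT array 2 and FS NT array 1. Arrays with the same label lay farther apart, at 0.53 for FR NT and 0.56 for FS NT. Over the 26549 probe sets over 4 on all NT arrays, the closest pair was FR NT array 1 with FS NT array 1 (0.32). There FR NT array 2 and FS NT array 2 lay at 0.35 and the crossed pairs at 0.34 and 0.37. Arrays with the same label were again the farthest apart, at 0.44 for FR NT and 0.42 for FS NT. In 108 of the 150 (72.0%) the closest pairing of the 4 NT arrays was FR 1 with FS 2 and FR 2 with FS 1, in 28 it followed the array number, and in 14 it followed the line label. Among the 25894 probe sets over 4 on all NT arrays and without ties, these pairings took 44.8%, 37.2% and 17.9%. The labels were kept as deposited, each comparison of FR with FS in NT is given with this in view, and its cause was not tested.

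**Figure D1:**
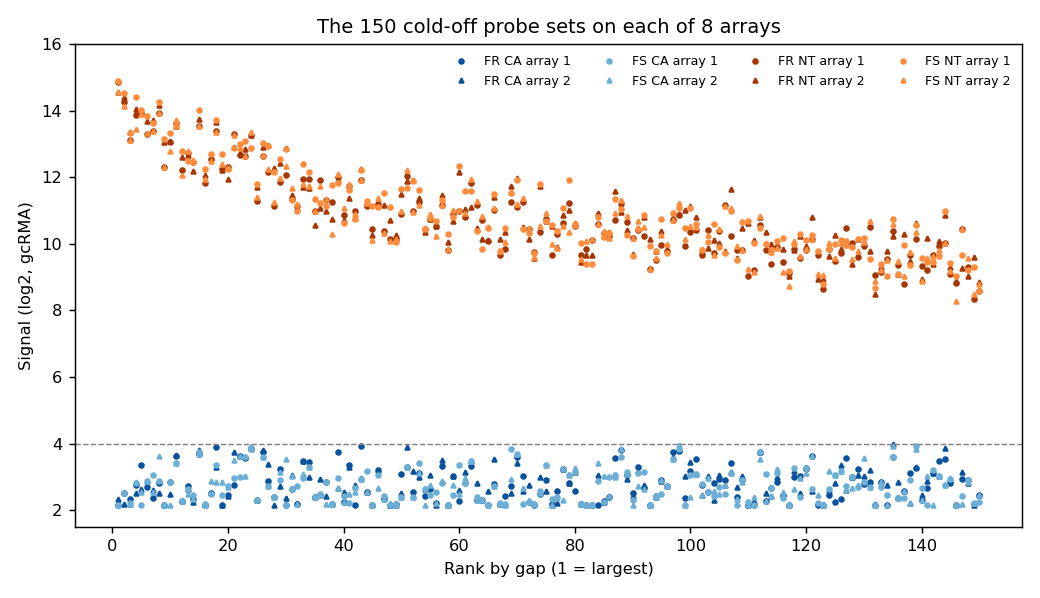
Log2 signal of each of the 150 probe sets (vertical axis) against rank by gap (horizontal axis), with circles for array 1 and triangles for array 2 of FR CA, FS CA, FR NT and FS NT. All CA points lie under the dashed line at 4, where the rule placed them, and the NT points lie between 8.29 and 14.89.

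The 150 transcripts spanned a wide range of levels in non-acclimated crowns and a narrow one after acclimation. Their CA means lay between 2.15 and 3.86 (median 2.68), and their NT means between 8.70 and 14.71 (median 10.58). Ranked among all tested probe sets, the NT means ran between percentiles 79.2 and 99.4. A log2 signal of at least 10 on every NT array was reached by 91 of the 150 and one of at least 12 by 25. Of all 7341 probe sets at 10 or more on every NT array, these 91 (1.24%) were under 4 on every CA array after the exclusions. In a bulk sample of crowns, fewer cells of a type and less RNA per cell cannot be told apart.

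The gap ran between 6.11 and 12.23 with a median of 7.31, and 9 probe sets had a gap of 10 or more. The median change was -7.81 in FR and -7.98 in FS (log2, CA minus NT), beside a median of 0.00 over all tested probe sets in each line. With signals under the array median raised to that median, the signal in CA was at least 57.6-fold lower in FR and at least 55.6-fold lower in FS for every member, with medians of at least 184-fold in FR and 192-fold in FS. limma called all 150 lower in FR, where 13.6% of the tested probe sets were called lower, and all 150 lower in FS, where 13.8% were. These counts follow from the choice. The shares over all tested probe sets depend on the scaling, and relative to the poly-A spike-ins the call was lower for 66.0% of them in FR and for 65.9% in FS.

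The CA signals were close to the floor for many but not all. Of the 600 CA values 376 were under the median of their array and 67 were at the floor. In 61 of the 150 all 4 CA values were under the array median, and in 5 (Ta.20519.1.S1_at, TaAffx.113831.1.S1_at, Ta.18835.1.S1_at, Ta.27156.1.S1_at and TaAffx.128729.1.S1_at, chosen after their values were seen) all 4 were at the floor. The highest CA value was 3.97. The median range over the 4 CA arrays was 0.42 and over the 4 NT arrays 0.49.

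TaAffx.79227.1.S1_at, which carries no gene symbol, was the brightest of the 150 before cold and had the largest gap. It stood at 2.15 and 2.33 on the FR CA arrays and at 2.15 on both FS CA arrays, against 14.85 and 14.56 on the FR NT arrays and 14.89 and 14.55 on the FS NT arrays. A change of -12.47 in FR and -12.57 in FS corresponded to at least 3647-fold and 3726-fold. A further probe set of its cluster, TaAffx.79227.1.S1_x_at, ranked 10th at 2.83 and 2.47 in FR CA and 2.83 and 2.15 in FS CA, against 13.07 and 13.07 in FR NT and 13.34 and 12.79 in FS NT. For both, the CA and NT values were more than 9 log2 units apart.

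Ta.9671.3.S1_a_at followed in the order of gaps, with 2.50 and 2.20 in FR CA and 2.50 and 2.50 in FS CA, against 14.27 and 14.40 in FR NT and 14.51 and 14.13 in FS NT. Ta.3162.1.S1_at had 2.33 and 2.19 in FR CA and 2.22 and 2.19 in FS CA, against 13.12 and 13.36 in FR NT and 13.32 and 13.13 in FS NT. On both, the lines overlapped within each treatment and the treatments stood far apart. Ta.21394.1.S1_at read 3.36 and 2.65 in FR CA and 2.15 and 2.53 in FS CA, against 13.92 and 13.93 in FR NT and 14.02 and 13.88 in FS NT. Ta.26907.1.S1_at read 2.70 and 2.88 in FR CA and 2.88 and 2.88 in FS CA, against 13.30 and 13.68 in FR NT and 13.84 and 13.34 in FS NT. The 2 higher NT arrays of Ta.26907.1.S1_at were FR 2 and FS 1, as in 71 of the 150.

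The remaining probe sets among the 10 largest gaps showed the same separation. Ta.28133.1.A1_s_at gave 2.35 and 2.61 in FR CA and 3.06 and 2.55 in FS CA, against 13.39 and 13.70 in FR NT and 13.64 and 13.38 in FS NT. Ta.7963.2.S1_x_at had its highest CA signal in FS, with 2.81 and 2.51 in FR CA and 2.88 and 3.63 in FS CA, against 13.92 and 14.17 in FR NT and 14.24 and 13.93 in FS NT. Ta.20519.1.S1_at was at 2.15 on all 4 CA arrays, against 12.30 and 13.06 in FR NT and 13.16 and 12.29 in FS NT. The spread of Ta.20519.1.S1_at thus lay wholly in the NT arrays, where FR 2 and FS 1 were the brighter pair.

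Of the 10 brightest in NT, 2 without a symbol were not among the 10 largest gaps. Ta.10329.17.S1_at had 3.62 and 3.64 in FR CA and 3.41 and 3.41 in FS CA, against 13.64 and 13.53 in FR NT and 13.53 and 13.72 in FS NT. Ta.22189.1.S1_a_at had 3.90 and 3.28 in FR CA and 3.36 and 2.83 in FS CA, against 13.39 and 13.67 in FR NT and 13.72 and 13.36 in FS NT. Their CA signals were above the array median, except for Ta.22189.1.S1_a_at on FS CA array 2.

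Gene symbols were given for 11 of the 150, which belong to 7 genes, and the other 139 carry none. The 7 are protein-coding loci with LOC symbols, for which the annotation used here states no product, so that no function is given. LOC778394 was reported by 2 probe sets of different clusters. TaAffx.105521.1.S1_at had 2.74 and 2.50 in FR CA and 2.80 and 2.85 in FS CA, against 13.86 and 14.04 in FR NT and 14.41 and 13.43 in FS NT. Ta.10532.1.A1_s_at had 3.70 and 3.82 in FR CA and 3.74 and 3.70 in FS CA, against 13.54 and 13.76 in FR NT and 14.01 and 13.53 in FS NT. The changes were -11.33 in FR and -11.10 in FS on the first, and -9.89 in FR and -10.05 in FS on the second.

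LOC606359 was reported by 3 probe sets of the cluster Ta.7388. Ta.7388.2.S1_a_at had 2.16 on both FR CA and both FS CA arrays, against 10.44 and 10.28 in FR NT and 11.15 and 10.12 in FS NT. Ta.7388.2.S1_x_at had 2.15 and 2.15 in FR CA and 2.15 and 2.22 in FS CA, against 10.15 and 10.72 in FR NT and 11.11 and 10.09 in FS NT. Ta.7388.1.S1_at had 2.20 and 2.15 in FR CA and 2.35 and 2.15 in FS CA, against 9.66 and 10.52 in FR NT and 10.57 and 9.99 in FS NT. FS NT array 1 was the brightest on all 3 probe sets.

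LOC543233 was reported by 2 probe sets with the same sequence identifier, and they differed little across the NT arrays. Ta.21348.1.S1_x_at had 2.18 and 2.21 in FR CA and 2.73 and 2.18 in FS CA, against 11.15 and 11.07 in FR NT and 10.98 and 11.19 in FS NT. Ta.21348.1.S1_s_at had 2.15 and 2.75 in FR CA and 2.67 and 2.54 in FS CA, against 11.00 and 10.76 in FR NT and 10.74 and 10.89 in FS NT. A member of the cluster without a symbol, Ta.21348.2.S1_at, had means of 2.90 in CA and 9.54 in NT.

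LOC542853 (Ta.1404.1.S1_at) had 2.89 and 3.38 in FR CA and 2.74 and 2.74 in FS CA, against 12.17 and 12.98 in FR NT and 12.95 and 12.25 in FS NT. LOC606352 (Ta.3749.1.S1_s_at) had 2.63 and 3.04 in FR CA and 2.46 and 2.75 in FS CA, against 10.74 and 10.76 in FR NT and 10.78 and 10.88 in FS NT. Ta.1404.1.S1_at had an NT spread of 0.81 that again set FR 2 and FS 1 above the others, whereas the 4 NT arrays of Ta.3749.1.S1_s_at lay within 0.14. LOC543106 (Ta.4001.1.S1_at) had 2.68 and 2.42 in FR CA and 2.68 and 2.42 in FS CA, against 9.39 and 10.01 in FR NT and 9.82 and 9.74 in FS NT. LOC543147 (Ta.30763.1.S1_x_at) had 2.46 and 2.48 in FR CA and 2.35 and 2.54 in FS CA, against 9.46 and 9.83 in FR NT and 10.17 and 9.15 in FS NT. No NT array of these 4 genes came within 6 log2 units of a CA array.

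**Figure D2:**
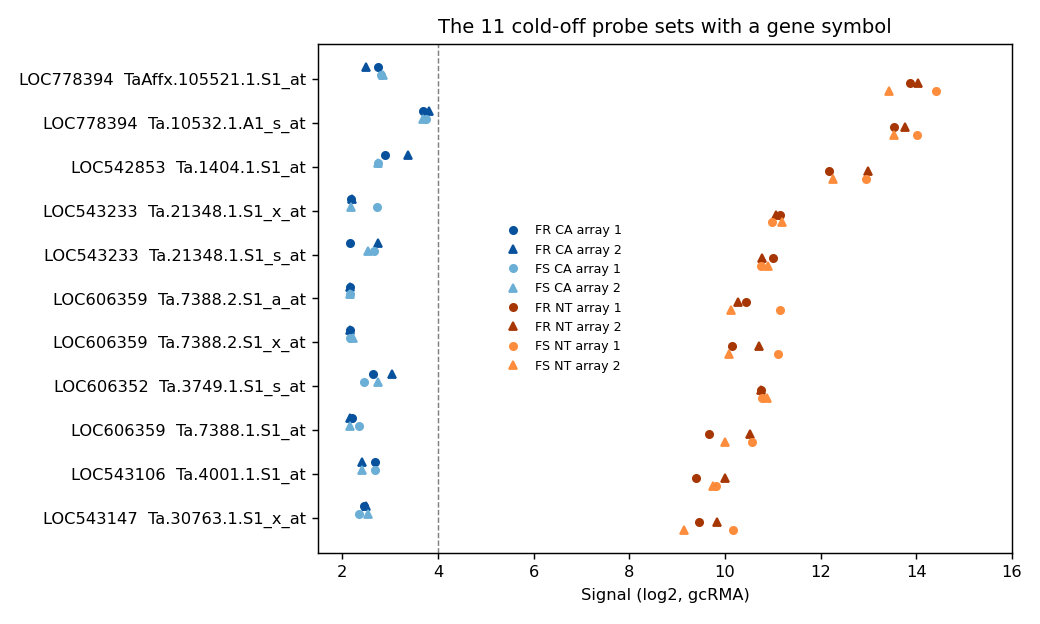
Log2 signal (horizontal axis) of the 11 probe sets that carry a gene symbol, by array, with FR CA above FS CA, FR NT and FS NT in each row, circles for array 1 and triangles for array 2. The CA points lie between 2.15 and 3.82 and the NT points between 9.15 and 14.41, and the dashed line marks the limit of 4 that the rule set for the CA arrays.

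The same genes had 3 other probe sets on the array that the rule did not take. For LOC606352, Ta.3749.1.S1_at had a CA mean of 3.24 and an NT mean of 9.18, and Ta.3729.1.A1_at had a CA mean of 2.81 and an NT mean of 8.61. Their changes, -5.94 and -5.80, fell short of the gap of the 150. For LOC543106, TaAffx.109340.1.S1_at stood at the floor in CA (mean 2.15) and in NT (mean 2.15), so that it gave no measurement of the change.

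The 150 probe sets came from 129 clusters. In 17 clusters 2 probe sets were among the 150 and in 2 clusters (Ta.7388 and Ta.21348) 3 were, which makes 40 in all. Probe sets of 1 cluster can bind the same transcript and are not independent measurements. The clusters held 284 further probe sets. A single cluster number, TaAffx.128418, accounted for 112 of them, and its annotated probe sets carry symbols of 5 different genes, so that this number does not stand for 1 transcript.

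Of the 172 outside TaAffx.128418, 146 (84.9%) were lower on every CA array than on every NT array, as were 17.7% of all tested probe sets. limma called 137 of the 172 lower in FR (79.7%, where 13.6% of all tested were) and 133 lower in FS (77.3%, where 13.8% were), and called none higher in either line. The median change was -4.27 in FR and -4.79 in FS. Dim probe sets differed from bright ones. Of 31 with an NT mean under 4, limma called 1 lower in each line and none higher. The other 141, which passed through the level in NT and are given only as a description, had changes of -10.17 to -0.16, and 30 of them were under 4 on every CA array. In TaAffx.128418 itself 11 of the 112 (9.82%) had separate values, and limma called 6 lower in each line and 13 higher in FR and 17 in FS.

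Ta.10329 and Ta.7378 each placed 1 probe set among the 150 and many bright ones outside it. In Ta.10329, the cluster of Ta.10329.17.S1_at, 36 others had an NT mean of at least 4 and 2 more were dim. The call was lower for 35 of the 36 in FR and for 35 in FS. The changes of the 36 were -9.29 to -1.36 (median -4.55), and none was under 4 on every CA array. The 36 passed through the level in NT, so that these counts are given only as a description. Among all tested probe sets with an NT mean of at least 4, limma gave a lower call to 29.4% in FR and to 29.7% in FS. In Ta.7378 all 37 others reached that level. The call was lower for 37 of them in FR and for 35 in FS, with changes of -10.17 to -0.16, again as a description. The 7 annotated probe sets of Ta.7378 carry 1 symbol, LOC543184, also named wcH2B-8, a histone H2B, which packages DNA and is made mainly in dividing cells. The member of this cluster, Ta.7378.29.S1_at (chosen after its values were seen), carries no symbol. It had 3.86 and 3.86 in FR CA and 3.86 and 3.83 in FS CA, against 13.25 and 13.26 in FR NT and 12.87 and 13.36 in FS NT.

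Probe sets of the same cluster as the brightest members did not always share their depth of fall. Of the others in Ta.9671, Ta.9671.2.S1_x_at had a CA mean of 3.88 and an NT mean of 13.59, Ta.9671.1.S1_x_at had 2.17 and 7.10, and Ta.9671.3.S1_x_at had 5.29 and 7.88, each in the order CA and NT. Ta.9671.3.S1_at was near background in CA (3.10) and in NT (3.12) although Ta.9671.3.S1_a_at, with the same cluster and sequence number, was among the brightest in NT. Ta.22189.2.S1_at had a CA mean of 3.25 and an NT mean of 9.76. Ta.20519.2.S1_at was at background in CA (2.15) and in NT (2.16).

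**Figure D3:**
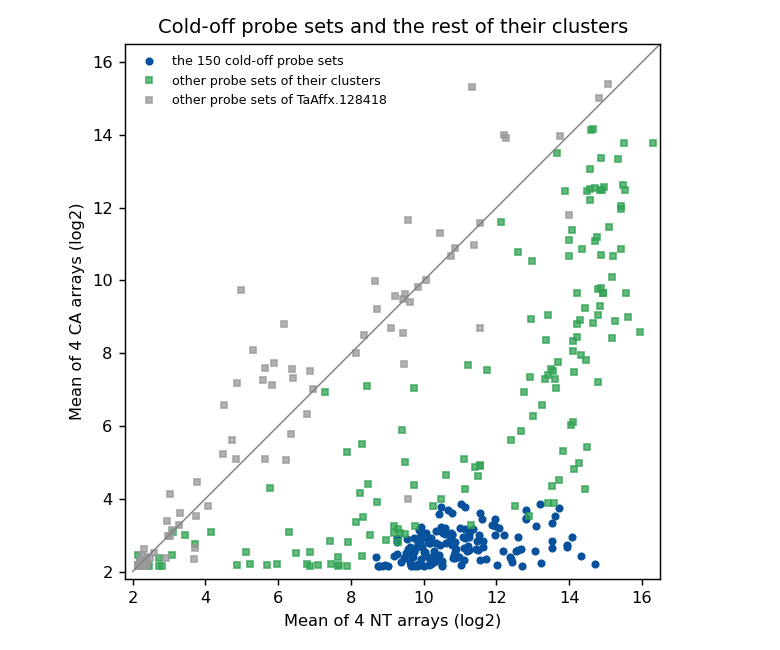
Mean log2 signal of the 4 CA arrays (vertical axis) against that of the 4 NT arrays (horizontal axis) for the 150 probe sets (circles) and for the other probe sets of their clusters (squares, grey for TaAffx.128418), with the line of equal signal. Of the green squares, the 141 with an NT mean of at least 4 lie under the line and the 31 dim ones lie near it at the lower left, whereas grey squares lie on both sides.

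The limits of the rule fell within a continuous range. The last 3 probe sets inside were TaAffx.16971.1.A1_at (gap 6.12), Ta.3193.1.S1_x_at (6.11) and Ta.28155.1.S1_x_at (6.11). The first 3 outside were TaAffx.51582.1.S1_s_at (6.11), Ta.3256.1.S1_at (6.11) and Ta.22101.1.A1_at (6.10). A further 85 probe sets had a gap as large as that of the 150th but were kept out by the limit of 4, with highest CA values of 4.02 to 9.49. In the opposite direction, 111 probe sets under 4 on every NT array had as large a gap upward.

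Among the genes set aside by name, 3 probe sets met the rule otherwise. They report H2A-9, a histone H2A (Ta.27657.12.S1_at, gap 9.86), hsp16.9A, a small heat shock protein that binds unfolding proteins (Ta.24332.1.S1_at, gap 8.77), and TUBA, an alpha-tubulin of the microtubules (Ta.723.1.S1_at, gap 6.41). hsp16.9A stood at 2.36 on all 4 CA arrays, against 11.30 and 12.82 in FR NT and 12.94 and 11.14 in FS NT. Its NT arrays thus paired as in most of the 150.

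None of the 150 matched a gene list drawn up for cold crowns. The lists can be matched only through names, which 139 of the 150 lack, and the set-aside symbols had taken H2A-9, hsp16.9A and TUBA out beforehand. The counts below stand beside 13.6% called lower and 15.3% called higher among all tested probe sets in FR, and 13.8% and 16.4% in FS. The list of histones, cyclins and DNA replication matched probe sets of histones H2A and H2B alone, and limma gave a lower call to 17 of these 18 in FR and to 17 in FS, and a higher call to the remaining one in each line. For photosynthesis (OEE1, OEE2 and petC) the call was lower for 4 of 5 in each line. The tubulin and actin list matched tubulins alone, of which 8 of 10 fell in FR and 7 in FS. Of PR5, a pathogenesis-related protein, a thionin and the lipid transfer protein LTP3, 3 of 5 probe sets fell in each line. The 2 cell wall probe sets, of XTH, which remodels xyloglucan, and COMT1, an enzyme of lignin synthesis, and the single heat shock probe set (hsp16.9A) were called lower in each line. The medians in FR and FS were -6.53 and -6.67 for the histones, -1.33 and -1.02 for photosynthesis, and -0.59 and -0.77 for the tubulins.

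The other lists did not share this direction. Of the COR, LEA and dehydrin probe sets (COR410, LEA1, Em and Rab15) 6 of 10 rose in FR and 7 in FS, and none fell. Antioxidant enzymes (peroxidase, Prx1, catalase CAT1 and the glutathione transferase GSTZ1) were divided, with 4 of 11 lower and 4 higher in each line. For gibberellin genes (GA20ox, an enzyme of gibberellin synthesis) 0 of 4 were called in FR and 1 was called lower in FS. For fructan metabolism, where only the fructan-degrading exohydrolases 1-FEH and 6-FEH matched, 1 of 4 was lower in FR, and 1 was lower and 2 were higher in FS. The lists of transport and of flowering genes matched no name.

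The probe sets differed from the array as a whole in how they were designed. Of the 150, 36 (24.0%) had the TaAffx prefix, as did 48.6% of all tested and 10.4% of those at 10 or more on every NT array. Probe sets ending in x_at were 16.7% of the 150, 11.1% of all tested and 24.5% of the bright ones. Those ending in s_at, whose probes are shared by several transcripts, were 5.33%, 4.28% and 8.42%.

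As a description, probe sets were also chosen on 1 line and measured in the other. Both lines went through the same treatment, and most of the probe sets so chosen were among the 150. The counts are therefore not a test of the 150. The rule was applied to the 4 FR arrays alone, and the 150 probe sets so chosen were tested in a limma fit on the 4 FS arrays alone. In FS their median change was -8.05 (range -12.57 to -5.99), beside 0.00 over all tested probe sets. All 150 were called lower, where 12.1% of the tested probe sets were (71.6% relative to the poly-A spike-ins), and all had FS CA values under their FS NT values. The 150 included 135 of those chosen on all 8 arrays, and 139 were under 4 on both FS CA arrays.

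Chosen on the 4 FS arrays and measured in FR, the median change was -7.89 (range -12.47 to -4.27), and all 150 were again called lower, where 10.2% of the tested probe sets were (61.7% with signals floored at the array median). The list held 119 of those chosen on all 8 arrays, and 124 were under 4 on both FR CA arrays. These fits had 2 residual degrees of freedom. Without 1 of the 4 arrays tested a group was left with a single array. Fewer of the 150, and a smaller share of all tested probe sets, were then called lower in either line. With the array number as a replicate block, which leaves 1 residual degree of freedom, the counts were 129 of 150 in FS, where 5.98% of the tested probe sets were called lower, and 0 of 150 in FR, where none of the tested probe sets was. At an unadjusted p under 0.05, limma with this block put all 150 lower in each line. The share over all tested probe sets was not counted there, so that this count shows nothing particular to the 150. The NT arrays of both fits are those that did not group by line label, and the part of this in the counts was not tested.

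Probe sets that were under 4 in CA in 1 line and not in the other were the smaller share. The 2 with the highest CA signal in FS among those chosen on FR, and the highest in FR among those chosen on FS, are given here and were picked after their values were seen. Ta.22984.1.S1_x_at, chosen on FR, had 3.18 and 3.87 in FR CA against 13.21 and 13.88 in FR NT, and 6.91 and 6.95 in FS CA against 13.88 and 13.30 in FS NT. Ta.3249.1.S1_at, chosen on FR, had 3.46 and 2.85 in FR CA and 6.67 and 6.72 in FS CA. Ta.5627.1.S1_x_at, chosen on FS, had 6.33 and 6.41 in FR CA and 2.91 and 2.91 in FS CA. These 3 are not among the 150.

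**Figure D4:**
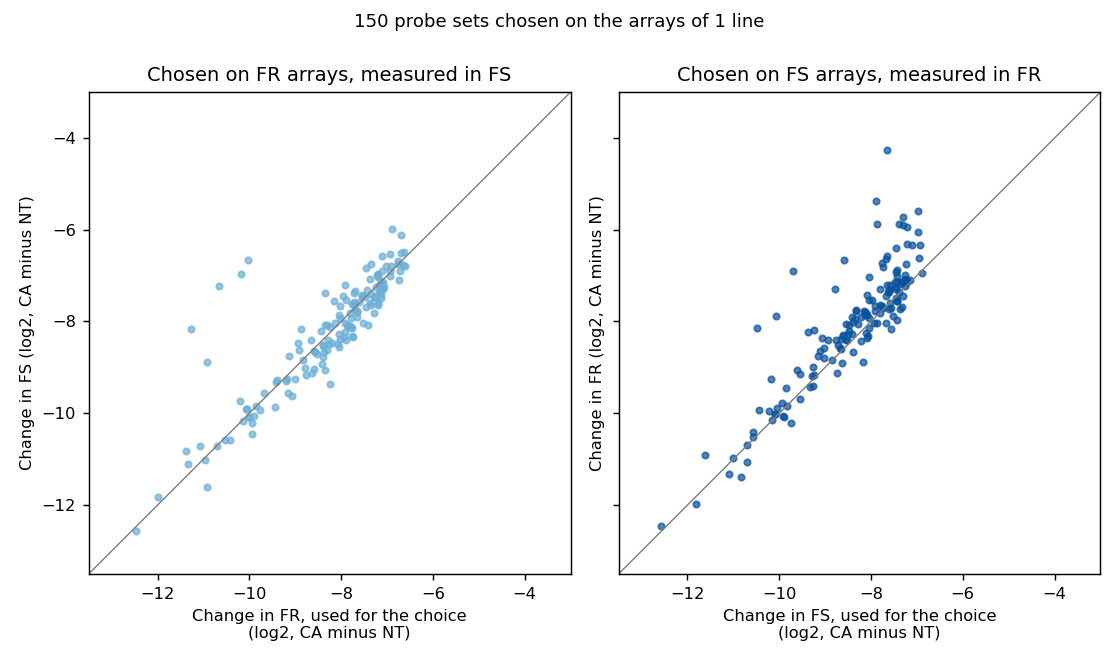
Change in log2 signal (CA minus NT) in the line not used for the choice (vertical axis) against that in the line used (horizontal axis), for 150 probe sets chosen on FR arrays (left) and 150 chosen on FS arrays (right), with the line of equal change. Every point lies below -4 on the vertical axis, and a few points in each panel lie well above the line of equal change.

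The lines were then compared within each treatment. In NT the difference FR minus FS lay between -0.38 and 0.38 (median -0.04), and limma called 0 of 150, where 0.0213% of the tested probe sets were called. At an unadjusted p under 0.05 it called 2 of 150, where 1.43% of the tested probe sets were called. The median width of the 95% interval was 0.65 to either side. The largest differences were -0.38 for TaAffx.84711.1.S1_at (10.09 and 10.10 in FR NT, 10.47 and 10.49 in FS NT), 0.38 for TaAffx.55612.1.S1_at (9.53 and 9.78 in FR NT, 9.04 and 9.52 in FS NT) and -0.37 for TaAffx.45682.1.S1_at (10.99 and 10.57 in FR NT, 11.33 and 10.98 in FS NT). Among the probe sets just named, only TaAffx.84711.1.S1_at and TaAffx.55612.1.S1_at had lines that did not overlap.

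In CA the rule capped the signals at 4, so that the difference between lines describes what was left under that limit. It lay between -0.76 and 0.98 (median 0.01), and limma called 0 of 150, where 0.373% of the tested probe sets were called. At an unadjusted p under 0.05 limma called 7 of 150, where 7.64% of the tested probe sets were called. The closest pairing of the 4 CA arrays followed the line label in 52 (45.6%) of the 114 members whose pairings were not all tied. Among 25238 such probe sets over 4 on all CA arrays it did so in 49.5%. The largest difference was that of Ta.20218.1.A1_x_at, with 3.35 and 3.29 in FR CA and 2.21 and 2.47 in FS CA, a difference of 0.98 with a standard error of 0.16 (adjusted p = 0.18). The next were 0.96 for TaAffx.120138.1.A1_at (3.54 and 3.87 in FR CA, 2.75 and 2.75 in FS CA) and -0.76 for Ta.18076.1.S1_at (2.71 and 2.53 in FR CA, 3.83 and 2.92 in FS CA). In each of the 3 the lines did not overlap.

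The difference in response, the change in FR minus that in FS, lay between -0.71 and 1.13 with a median of 0.10, and it was under 0.5 in size for 130 of 150. limma called 0 of 150, where 0.108% of the tested probe sets were called. At an unadjusted p under 0.05 limma called 4 of 150, where 4.47% of the tested probe sets were called. The 95% interval reached 0.91 to either side in the median, so that smaller differences could not be resolved. The largest was again that of Ta.20218.1.A1_x_at, at 1.13 (95% interval 0.53 to 1.72, adjusted p = 0.47), whose NT signals were 11.74 and 11.38 in FR and 11.63 and 11.79 in FS. TaAffx.120138.1.A1_at followed with 1.03 (-0.58 to 2.64) and Ta.4747.1.S1_at with 0.93 (-0.84 to 2.69). The intervals of the 150 together ran between -2.81 and 2.76.

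Each fit without a single array left a group with 1 array, and a few members were then called between lines. No larger share of the 150 than of all tested probe sets was called there. The calls therefore show no line difference particular to the 150, and only effect sizes are given. In NT the difference was 0.39 for Ta.7378.29.S1_at without FS NT array 2. In CA it was -0.83 for TaAffx.43139.1.S1_at without FR CA array 2 and 0.62 for Ta.9671.2.S1_at without FS CA array 2. The difference in response was 0.80 for TaAffx.84711.1.S1_at without FR CA array 1 and 0.86 for Ta.9671.2.S1_at without FS CA array 2. Such a fit takes the spread of the remaining single array from the other groups, and with all 8 arrays the adjusted p of each was 0.82 to 1.

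The spread between NT arrays followed the crossed pairing and was large for some of the 150. FR NT array 1 and FS NT array 2 were both below the other NT arrays in 71 probe sets and both above them in 37. Among the 26549 probe sets over 4 on all NT arrays the lean was the other way, with 4295 below and 7313 above. Both FR NT arrays were above both FS NT arrays in 3 of the 150 and below in 11. The closest pairing followed the line label in 9.33% of the 150 and in 17.9% of the probe sets over 4 without ties. The mean of FR 1 and FS 2 minus the mean of FR 2 and FS 1 ran between -1.53 and 1.39, and was below -0.5 in 31 probe sets and above 0.5 in 9. The probe sets at the ends of this range, named after their values were seen, show it plainly. Ta.202.1.S1_at had 9.02 and 10.62 in FR NT and 10.69 and 9.23 in FS NT, and 2.15 to 2.24 on the 4 CA arrays. Ta.4335.1.S1_at had 10.36 and 11.72 in FR NT and 11.81 and 10.54 in FS NT. In both, FR NT array 2 and FS NT array 1 were the brighter pair.

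Ta.5149.1.A1_at went the other way, with 11.16 and 9.79 in FR NT and 9.71 and 11.13 in FS NT. The probe sets Ta.10774.1.A1_at (11.16 and 10.49 in FR NT, 10.39 and 11.29 in FS NT) and Ta.10774.1.A1_x_at (11.25 and 10.50 in FR NT, 10.44 and 11.38 in FS NT) of 1 cluster did so together. Across the 150, the deviations of FR NT and FS NT arrays from their group means, taken by array number, correlated at -0.61, as a description over probe sets that share the same 4 arrays. For all tested probe sets this value was 0.08. The standard deviation of the NT arrays of a group reached 1.13 in FR and 1.10 in FS, with medians of 0.20 and 0.26. These spreads were small beside the smallest gap of 6.11.

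**Figure D5:**
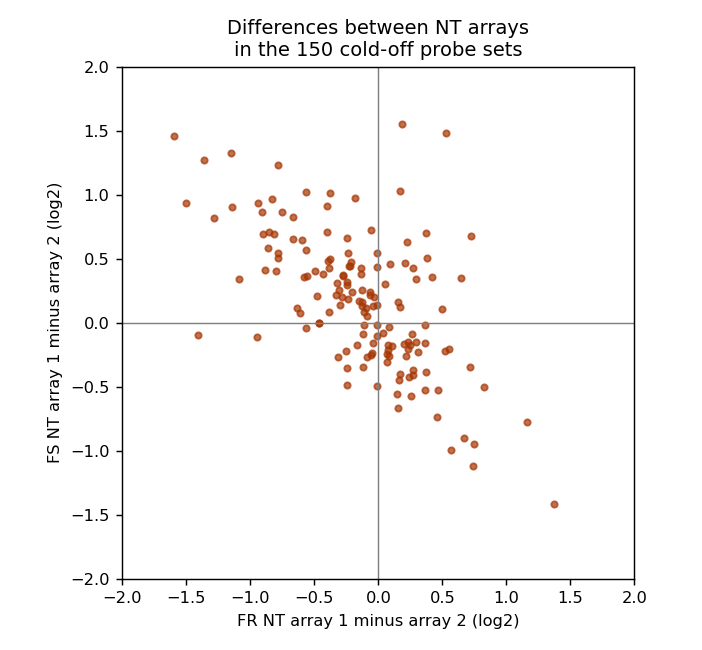
Difference between array 1 and array 2 of FS NT (vertical axis) against the same difference of FR NT (horizontal axis), in log2 units, for the 150 probe sets. Most points lie at the upper left and the lower right, and FR NT array 1 and FS NT array 2 are both below the other NT arrays in 71 probe sets and both above them in 37.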

How the data were processed

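Signals of 61290 probe sets on 8 Affymetrix wheat arrays were analysed. The log2 values deposited by the authors had been corrected for background and normalized by them with gcRMA, for which their processing notes list both RMA and GCRMA. gcRMA holds dim signals at a floor, so that changes of probe sets near it are bounds. After 175 controls were set aside, limma 3.58.1 in R 4.3.3 was fitted to 61115 probe sets as deposited, with a mean for each of 4 groups, an intensity trend (4 residual degrees of freedom) and Benjamini-Hochberg adjustment over all of them, called at an adjusted p under 0.05. The same test was run on the 4 arrays of 1 line for probe sets chosen on the other. The method was tested on simulated data. Probe sets of 28 of the 41 genes that the study displayed were matched and left out. Named probe sets are those with a symbol, the 10 largest gaps, the 10 highest NT means, the largest line differences, those at the edge of the rule, and others of their clusters. The members and lists were chosen with earlier results of these data known. Alternatives covered the variance model, filter, scaling, pairing and each array left out. Python 3.11.15 and matplotlib 3.10.9 drew the figures.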

Additional observations from a re-analysis of the deposited data

How the results depend on the processing

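The counts of the 150 called lower in FR and in FS stayed at 150 under all alternatives run, which follows from the choice. The counts called between lines in NT, in CA and in the difference in response were 0 under all alternatives other than a single array left out. In those fits no larger share of the 150 than of all tested probe sets was called. With signals floored at the array median the median change was -7.53 in FR and -7.59 in FS, and relative to the poly-A spike-ins -8.41 in FR and -8.58 in FS. Relative to the spike-ins the share of all tested probe sets called lower was 66.0% in FR and 65.9% in FS, and with the array median as floor 61.5% and 61.6%. In the fits on 1 line these shares were 71.6% and 14.0% in FS, and 17.9% and 61.7% in FR. Probe sets at a floor take the shift of their array by construction. Without 1 array the median change was -7.94 to -7.74 in FR and -8.08 to -7.91 in FS. With a limit of 3 in place of 4 the rule shared 70 members with the list as given, with a limit of 5 it shared 124, and without 1 array 137 to 149. With the array number as a replicate block, the counts on all 8 arrays were 150 in FR, 150 in FS and 0 for each comparison between lines. Of all tested probe sets this block called 13.4% lower in FR and 13.5% lower in FS. Between lines it called 0.0147% in NT, 0.0573% in CA and 0.036% in the difference in response. For probe sets chosen on FR and tested in FS the replicate block gave 129 of 150, where 5.98% of all tested were called lower. For those chosen on FS and tested in FR it gave 0 of 150, where none of all tested was. Each fit had 1 residual degree of freedom. Without 1 array the count in FR was 96 to 105 and that in FS 107 to 132. Nothing in the labels ties arrays of the same number. Their deviations correlated over all tested probe sets at 0.08 between FR NT and FS NT and at 0.18 to 0.36 between the other 5 pairs of groups, so that not every pair was over 0.1. With a crossed replicate block, chosen after the data were seen, the counts were 150, 150, 0, 0 and 0. The shares of all tested probe sets were then 12.7%, 13.0%, 0.0147%, 0.0884% and 0.0376%, in the same order. Fits without FR NT array 1 and FS NT array 2, or without FR NT array 2 and FS NT array 1, were also run. Each keeps 2 NT arrays that lay closest over the 150 (0.30 and 0.23). Such a fit cannot show whether the line comparison of the 150 in NT depends on the crossed pairing. The signal floor limits the depth of change that can be measured.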

Other observations

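The crossed pairing of the NT arrays was also frequent in a set outside the 150 that was chosen by its CA values. Among 240 probe sets whose CA arrays differed between lines by at least 1 without overlap, all 8 arrays being over 4, the closest NT pairing was FR 1 with FS 2 and FR 2 with FS 1 in 191, followed the array number in 33 and the line label in 13. Ta.28748.2.A1_at, chosen after its values were seen, had 7.94 and 7.72 in FR CA and 10.73 and 10.84 in FS CA, against 10.97 and 7.32 in FR NT and 7.21 and 11.18 in FS NT. The direction of the line difference in CA matched that of FR 2 and FS 1 minus FR 1 and FS 2 in 68 of the 240 and was opposite in 172. Ta.28748.2.A1_at was among the 68 and so went against the larger share. It matched that of the labelled lines in 99 and was opposite in 141.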
